A study of Mus musculus with 30 samples.

Results

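Bone marrow-derived macrophages of Ticam2-/- mice that had received LPS for 2 h were compared with Ticam2-/- macrophages that had received LTA for the same time. The comparison takes in every library that the labels assign to these groups, 6 of the 30 libraries in the series: 3 with LPS and 3 with LTA. LPS was given at 10 ng/mL and LTA at 100 ng/mL, so the ligand and its dose cannot be told apart. The animals were C57BL/6J, the labels give 3 animals per genotype as the replicates of every treatment, and they state neither sex nor age. Both groups carry the same Ticam2 deletion, and the macrophages were grown from whole bone marrow, so the deletion was present throughout their differentiation. Untreated macrophages are among the deeper libraries and enter no comparison here, so a value higher with LPS can reflect a larger rise with LPS or a smaller one with LTA. They were part of the fit of all 30 libraries that set the gene filter and the estimate of spread. WT macrophages given LPS or LTA for 2 h, and Ticam2-/- macrophages given LPS or LTA for 6 h, served as separate comparisons with 3 libraries per group.

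LPS, a glycolipid of Gram-negative bacteria, is sensed by TLR4 with its co-receptors CD14 and MD-2, whereas lipoteichoic acid (LTA), a cell wall polymer of Gram-positive bacteria, is sensed by TLR2. Both receptors use the adaptors TIRAP and MyD88 at the cell surface to activate NF-kB and MAP kinases, which induce cytokine and chemokine genes. TLR4 has a further route from endosomes, in which TRAM, the protein encoded by Ticam2, recruits TRIF, and TRIF leads to IRF3, interferon beta and the genes that interferon induces.

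The 6 libraries held between 1334784 and 2658329 gene counts each, against 10641070 to 13521660 in the 18 libraries outside the 2 h set. The 3 LPS libraries held 1334784, 2658329 and 1771370 counts and the 3 LTA libraries 2191199, 1992730 and 1658298, so a gene with 3 counts stood at 1.13 to 2.25 CPM, the count scaled to library size. The deleted gene Ticam2 had 1, 14 and 7 counts with LPS and 8, 7 and 3 with LTA in Ticam2-/- cells, against 22, 18 and 28 with LPS and 15, 19 and 20 with LTA in WT cells. Counts per gene do not show whether the reads lie inside the deleted part. All 16 macrophage identity genes were detected, with a summed level of 28480 to 30500 CPM with LPS and 31120 to 32110 CPM with LTA, lower with LPS and without overlap. The defining neutrophil genes Ly6g, Elane, Cxcr2 and Retnlg were at 0 in all 6 libraries, as were Cd3e and the haemoglobin genes Hbb-bs and Hbb-bt. Of 10 neutrophil markers the other 5 in the table, S100a8, S100a9, Ngp, Ltf and Camp, were detected, and the list summed to 18.1 to 24.7 CPM with LPS and 15.1 to 16.4 CPM with LTA, without overlap. The erythroid and megakaryocyte markers summed to 430 to 536 CPM with LPS and 367 to 392 CPM with LTA, also without overlap. This was below the 5911 to 8036 CPM of the 18 deeper libraries. Of these 9 markers 6 were at 0 in all 6 libraries, and the list includes Pf4, which macrophages also express. The part of these markers in the results was not tested. The 8 fibroblast markers summed to 194 to 298 CPM with LPS and 198 to 351 CPM with LTA, above the 7.01 to 80.8 CPM of the 18 deeper libraries; they did not separate the ligands. LPS replicate 2 was the deepest library and differed most from the others of its group, with a chi-square per degree of freedom of 2.2 and 1.81 against replicates 1 and 3, and of 1.3 between replicates 1 and 3. In bulk RNA, fewer cells that express a gene and less of its RNA per cell cannot be told apart.

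After 2 h the Ticam2-/- macrophages given LPS differed from those given LTA in a small set of genes, most of them higher with LPS. Called genes included 8 cytokine, 7 chemokine, 6 NF-kB and 8 signalling feedback genes, all higher with LPS. A gene was called where the adjusted p was below 0.05 in edgeR's quasi-likelihood test, adjusted by Benjamini and Hochberg over all genes tested. By this rule 211 of 15119 genes (1.40%) were called, of which 172 (1.14%) were higher and 39 (0.258%) lower with LPS. Scaling by total counts alone gave 136 higher and 62 lower. Most differences were small: 105 of the higher and 25 of the lower genes had a log2 difference of less than 0.5 in size, and 17 higher and 5 lower genes reached 2-fold. The median log2 difference was 0.43 over the higher genes and -0.41 over the lower genes. In 205 of the 211 genes the 3 LPS libraries did not overlap the 3 LTA libraries, which held for 2133 (14.1%) of all genes tested. Levels below are CPM scaled by TMM factors, and each log2 difference is LPS over LTA with an approximate standard error (SE). The SE is the size of the log2 difference divided by the square root of the F value of edgeR's test. It is least exact for genes with few counts.

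**Figure D1:**
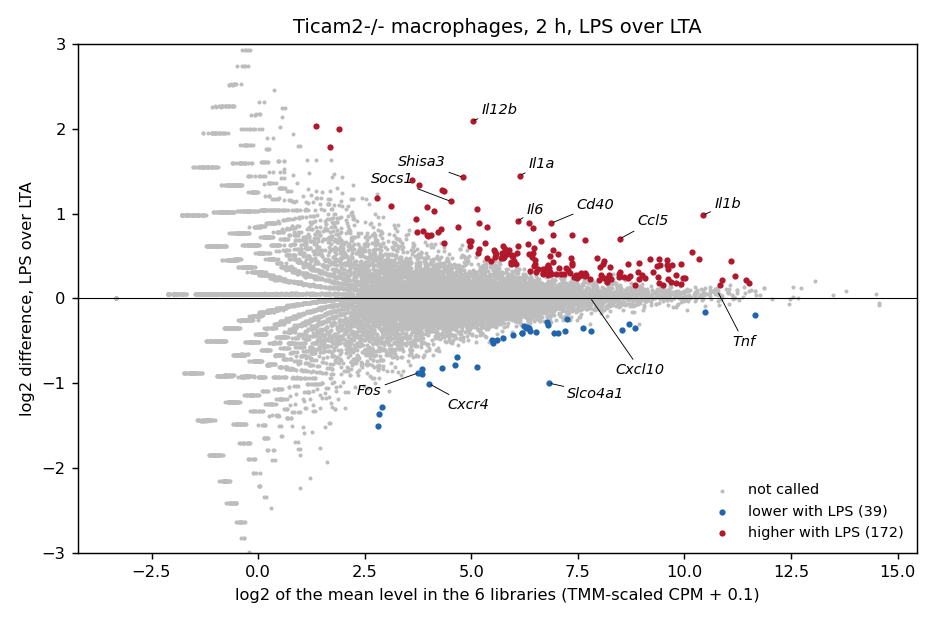
Log2 difference of LPS over LTA (y axis) against log2 of the mean CPM over the 6 libraries (x axis) for each gene tested in Ticam2-/- macrophages at 2 h, with called genes coloured; 344 genes, 2 of them called, lie outside the plotted range. Higher genes (172) outnumber lower genes (39), Il12b lies at 2.09 and Slco4a1 at -1.0, and Tnf and Cxcl10 lie near the zero line.

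Several cytokine genes were higher with LPS. Of 23 inflammatory cytokine genes tested, 8 were higher with LPS and none lower, against 1.14% higher over all genes tested. The median log2 difference was 0.44, against 0.00 over all genes tested. The 8 were Il1b, Il1a, Il6, Il12b, Il27, Csf1, Csf2 and Tnfsf9. Il1b, which encodes the precursor of interleukin-1 beta and lies at chr2:129364570-129371139 on the minus strand of GRCm38, had 1814, 1871 and 1855 CPM with LPS and 963, 893 and 950 CPM with LTA. The 3 LPS libraries lay within a narrow band, far above every LTA library. Its log2 difference was 0.98 ± 0.04 (SE; adjusted p = 2.8e-25 by edgeR's test). Il1a, its neighbour on the chromosome that encodes interleukin-1 alpha, had 108, 96.9 and 105 CPM with LPS and 38.7, 34.7 and 39 CPM with LTA. These groups did not overlap either, and the log2 difference was 1.45 ± 0.08 (edgeR, adjusted p = 3e-19).

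Il12b, which encodes the p40 subunit shared by interleukin-12 and interleukin-23, had 55.2, 56.8 and 45.3 CPM with LPS and 10.6, 11.1 and 16.2 CPM with LTA. Even the lowest LPS library stood well above the highest LTA library, and the log2 difference was 2.09 ± 0.24 (edgeR, adjusted p = 1.6e-06). Il6, an acute-phase cytokine gene, had 91.3, 93.0 and 81.5 CPM with LPS and 44.2, 51.8 and 45.7 CPM with LTA. The LPS libraries were again all higher, with a log2 difference of 0.91 ± 0.09 (edgeR, adjusted p = 5.5e-10). Among the other called cytokines, the log2 difference was 0.84 for Il27, which encodes a subunit of interleukin-27, 0.54 for the co-stimulatory ligand gene Tnfsf9, and 0.44 for Csf1, the gene of the macrophage growth factor M-CSF. Csf2, which encodes GM-CSF, had a log2 difference of 2.00 on mean levels of 5.77 CPM with LPS and 1.47 CPM with LTA, the LTA mean lying within the range that 3 counts span.

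Tnf, the gene of tumour necrosis factor, had 1765, 1818 and 1837 CPM with LPS and 1725, 1690 and 1708 CPM with LTA, groups that did not overlap but lay close together, and its log2 difference of 0.08 ± 0.04 was not called (edgeR, adjusted p = 0.5). Il10, which encodes an anti-inflammatory cytokine, had 7.79, 4.29 and 12.4 CPM with LPS and 4.25, 3.70 and 7.25 CPM with LTA. These levels rest on few counts and overlap, and the difference was not called (edgeR, adjusted p = 0.57).

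**Figure D2:**
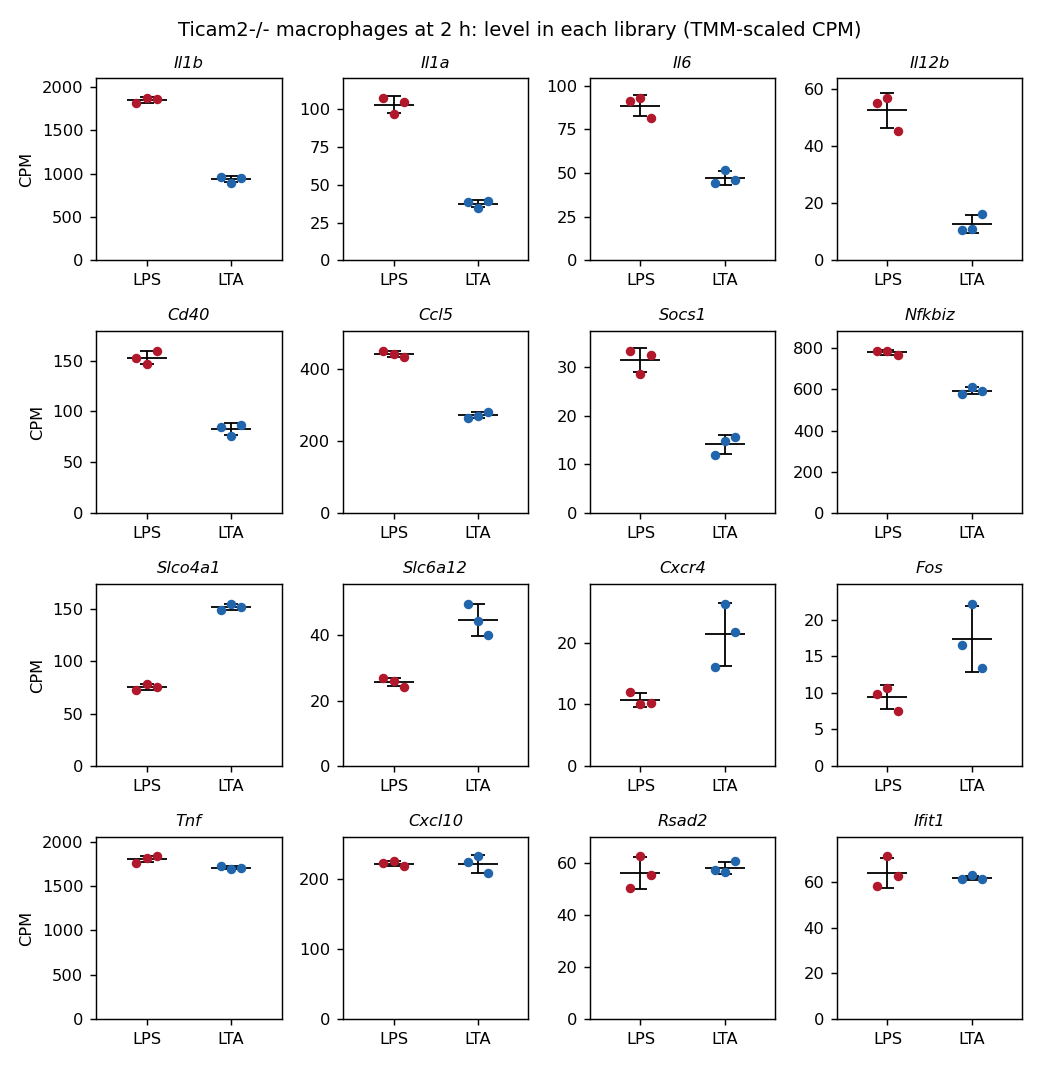
TMM-scaled CPM (y axis, from 0) of 16 genes in each Ticam2-/- library at 2 h, with LPS left of LTA; points are libraries, the long bar is the mean and the error bar the SD of the 3 libraries. The LPS and LTA libraries are apart for Il1b, Il1a, Il6, Il12b, Cd40, Ccl5, Socs1 and Nfkbiz, which are higher with LPS, and for Slco4a1, Slc6a12, Cxcr4 and Fos, which are lower, while Cxcl10, Rsad2 and Ifit1 overlap.

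Chemokine genes split. Of 16 tested, 7 were higher with LPS (Ccl2, Ccl4, Ccl9, Ccl22, Cxcl1, Cxcl3 and Cx3cl1) and none lower. Over all genes tested 1.14% were higher. The median log2 difference of the chemokine genes was 0.23. Cxcl3, a ligand of the neutrophil receptor CXCR2, had 1576, 1423 and 1506 CPM with LPS and 1063, 1082 and 1110 CPM with LTA. The lowest LPS library exceeded the highest LTA library, and the log2 difference was 0.47 ± 0.05 (edgeR, adjusted p = 2.9e-10). Cxcl1, a ligand of the same receptor, had a log2 difference of 0.42 ± 0.06 (edgeR, adjusted p = 1.3e-06), whereas Cxcl2, a further such ligand, had one of 0.13 ± 0.04 and was not called (adjusted p = 0.14). Cx3cl1, which encodes fractalkine, had 36.1, 54.3 and 49.1 CPM with LPS and 20.4, 25 and 24.5 CPM with LTA, without overlap and with a log2 difference of 1.06 ± 0.14. The T cell attractant gene Ccl22 had 17, 15 and 21.6 CPM with LPS and 7.23, 7.40 and 5.02 CPM with LTA, with a log2 difference of 1.39 ± 0.25. Differences were small for the monocyte attractant gene Ccl2 (log2 difference 0.25) and for Ccl4 (0.22), and those of Ccl3 (0.07) and Ccl7 (0.09) were not called.

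The 250 bases before the RefSeq start (GRCm38.p6) are printed for 3 genes because these show the main contrasts: Il1b and Il6, which were higher with LPS, and Cxcl10, which was not. Capitals mark matches on either strand to an NF-kB consensus of 10 letters or to the interferon-stimulated response element (GAAA, 2 bases of any kind, GAAA). The Il1b stretch is chr2:129371140-129371389 on the minus strand, that of Il6 is chr5:30012864-30013113 on the plus strand, and that of Cxcl10 is chr5:92348890-92349139 on the minus strand.
Il1b: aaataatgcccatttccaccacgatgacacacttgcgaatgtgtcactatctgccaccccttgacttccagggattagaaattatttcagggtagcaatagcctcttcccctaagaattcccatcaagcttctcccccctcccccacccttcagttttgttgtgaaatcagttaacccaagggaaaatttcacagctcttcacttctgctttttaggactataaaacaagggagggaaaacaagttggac
Il6: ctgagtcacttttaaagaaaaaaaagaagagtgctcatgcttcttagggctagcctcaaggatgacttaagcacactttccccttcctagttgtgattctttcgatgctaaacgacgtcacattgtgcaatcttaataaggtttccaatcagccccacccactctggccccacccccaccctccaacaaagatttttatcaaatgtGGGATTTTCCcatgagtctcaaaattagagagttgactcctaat
Cxcl10: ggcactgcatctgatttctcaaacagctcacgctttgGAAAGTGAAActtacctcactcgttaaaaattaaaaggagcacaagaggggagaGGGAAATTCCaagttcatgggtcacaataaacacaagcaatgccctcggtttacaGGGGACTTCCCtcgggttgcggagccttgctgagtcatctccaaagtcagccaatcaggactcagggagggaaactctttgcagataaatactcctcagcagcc

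The Il6 stretch held 1 NF-kB match, which starts 44 bases before the gene start, and 1 match to the AP-1 motif TGANTCA. The Cxcl10 stretch held 3 NF-kB matches, starting 159, 104 and 103 bases before the start, of which the last pair overlap, 1 interferon response element at 213 bases and 1 AP-1 match at 74 bases. The Il1b stretch held no match to these motifs or to the cAMP response element TGACGTCA. In windows from 250 bases before to 50 after the start, the NF-kB consensus was found in 22 of 130 higher genes with an entry (16.9%), in 10 of 33 lower genes (30.3%) and in 10.1% of 9803 genes tested. The interferon response element was found in 5.38% of the higher genes, in none of the 33 lower genes and in 3.44% of all genes tested. A match describes letters and does not show that a factor binds there. Ccl5 and Cd40 have no entry in the table used.

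Some genes of the NF-kB subunits and inhibitors, several of which NF-kB itself induces, were higher with LPS. Of 11 subunit and inhibitor genes, all 11 had a log2 difference above 0 (median 0.25) and 6 were called: Nfkbiz, Nfkb1, Nfkb2, Rel, Nfkbia and Nfkbib. Over all 15119 genes tested, 1.40% were called and 7681 had a difference above 0. A difference above 0 was also found in 29 of 31 ribosomal protein genes, none of them called, so the shared sign is not particular to this list. Without LTA replicate 1 the count of called NF-kB genes was 3. Rel lost its call without LTA replicate 1 (edgeR, adjusted p = 0.065) or LPS replicate 2 (0.053). Nfkbiz, which encodes the nuclear cofactor that Il6 and Il12b need for transcription, had 786, 784 and 766 CPM with LPS and 575, 611 and 591 CPM with LTA. The groups did not overlap, and the log2 difference was 0.39 ± 0.05 (edgeR, adjusted p = 2.4e-07). Nfkbia, which encodes the inhibitor IkB alpha, had a log2 difference of 0.18 ± 0.04 (edgeR, adjusted p = 0.0039; 0.051 without LTA replicate 3).

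Some genes of A20 partners and signalling feedback were higher with LPS. Of 20 tested, 8 were called, against 1.40% of all genes tested. All 8 were higher with LPS: Tnfaip3, Tnfaip2, Traf1, Birc3, Ripk2, Cish, Socs1 and Socs3. The median log2 difference of the 20 genes was 0.22. Ripk2 encodes a kinase that transmits NOD receptor signals. Socs1, which encodes an inhibitor of JAK kinases, had 33.3, 28.6 and 32.4 CPM with LPS and 11.9, 14.8 and 15.6 CPM with LTA. Every LPS library was clearly above every LTA library, and the log2 difference was 1.15 ± 0.17 (edgeR, adjusted p = 5.5e-06). Cish, of the same family, had 20.5, 19.3 and 18.3 CPM with LPS and 9.35, 5.09 and 8.36 CPM with LTA, with a log2 difference of 1.34 ± 0.22. Socs3 and Tnfaip3, which encodes the ubiquitin-editing enzyme A20, had smaller log2 differences of 0.31 and 0.36. Tnfaip2 had 2394, 2681 and 2474 CPM with LPS and 1827, 1852 and 1890 CPM with LTA, a log2 difference of 0.44 ± 0.04 (edgeR, adjusted p = 9.8e-13).

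The immediate early factors went both ways. Of 28 tested, 6 were higher with LPS (Junb, Jund, Ier2, Klf6, Bhlhe40 and Maff) and 2 lower (Fos and Atf3), with a median log2 difference of 0.20. Over all genes tested 1.40% were called. Bhlhe40 and Maff were near the threshold (edgeR, adjusted p = 0.034 and 0.04). Without LTA replicate 2, LPS replicate 2 or LPS replicate 3 the list held 5, 4 and 5 called genes. Junb, an AP-1 subunit gene, had 848, 713 and 804 CPM with LPS and 583, 572 and 544 CPM with LTA, without overlap and with a log2 difference of 0.47 ± 0.05 (edgeR, adjusted p = 6e-10). Fos, which encodes its dimer partner, had 9.91, 10.7 and 7.55 CPM with LPS and 16.6, 22.2 and 13.4 CPM with LTA. The groups did not overlap, but the LTA libraries were spread widely, and the log2 difference was -0.88 ± 0.21 (edgeR, adjusted p = 0.012; 0.33 without LTA replicate 2 and 0.15 without LPS replicate 3). Atf3, a repressor of inflammatory genes, had 83.5, 70.1 and 84.7 CPM with LPS and 96.9, 106 and 106 CPM with LTA. Its log2 difference was -0.40 ± 0.08 (edgeR, adjusted p = 0.0013; 0.19 without LPS replicate 2). Egr1 stood at 2.12, 3.22 and 3.78 CPM with LPS and 2.13, 4.16 and 2.79 CPM with LTA. These levels overlapped and lay close to those of 3 counts, with a log2 difference of 0.06 ± 0.40 (edgeR, adjusted p = 1).

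Of 21 MAP kinase phosphatase and mRNA decay genes, 3 were higher (Gadd45b, Dusp2 and Zc3h12a) and none lower, against 1.14% higher over all genes tested. The median log2 difference of the list was 0.13. Zc3h12a, which encodes the RNase Regnase-1, lost its call without LTA replicate 3 (adjusted p = 0.095) or LPS replicate 2 (0.12). Dusp1, which encodes a phosphatase that switches off p38, had 29.0, 34.7 and 39.9 CPM with LPS and 26.4, 25.4 and 23.4 CPM with LTA. The groups did not overlap, but the log2 difference of 0.47 ± 0.13 was not called (edgeR, adjusted p = 0.095). Zfp36, which encodes an mRNA decay factor that acts on Tnf, had a log2 difference of 0.04 ± 0.06 (adjusted p = 0.93).

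Genes downstream of IRF3 and interferon included 3 called ones, all higher with LPS. Of 14 IRF3 primary targets, 1 was called, Ccl5, with a median log2 difference of 0.08, and of 30 interferon-stimulated genes 2 were called, Irf1 and Ifi205, with a median of -0.02, against 1.40% called over all genes tested. The second of these counts was 1 without LTA replicate 2 or 3 and 0 without LPS replicate 2. Cxcl10, an interferon-responsive chemokine gene at chr5:92346638-92348889 on the minus strand, had 223, 226 and 218 CPM with LPS and 224, 233 and 209 CPM with LTA. The 6 libraries were interleaved, and the log2 difference was 0.00 ± 0.05 (edgeR, adjusted p = 1). Rsad2, which encodes the antiviral enzyme viperin, had 50.3, 62.6 and 55.6 CPM with LPS and 57.4, 56.4 and 60.8 CPM with LTA. These also overlapped, with a log2 difference of -0.02 ± 0.09 (edgeR, adjusted p = 1). The antiviral genes Ifit1 and Isg15 each had a log2 difference of 0.08, with SEs of 0.09 and 0.07 (edgeR, adjusted p = 0.92 and 0.83). Ifnb1, the gene of interferon beta, had 1 count in LPS replicate 1, 1 count in LTA replicate 2 and 0 in the other 4 libraries, so no difference was detectable at this depth.

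Ccl5 was the exception among the IRF3 targets. This T cell attractant gene, whose promoter responds to both IRF3 and NF-kB, had 450, 440 and 433 CPM with LPS and 263, 271 and 281 CPM with LTA. The groups were far apart relative to their spread, with a log2 difference of 0.70 ± 0.05 (edgeR, adjusted p = 2.1e-14). Irf1, which encodes a transcription factor induced by interferon and by NF-kB, had 136, 134 and 112 CPM with LPS and 100, 93.5 and 107 CPM with LTA. Its log2 difference was 0.36 ± 0.07 (edgeR, adjusted p = 0.002; 0.11 without LPS replicate 2).

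Genes of macrophage activation at the cell surface were higher with LPS in part. Of 14 genes of co-stimulation or antigen-presenting cell activation, 6 were higher (Cd40, Cd44, Cd69, Cd83, Cd274 and Icam1) and none lower, with a median log2 difference of 0.37. Over all genes tested 1.14% were higher. Cd40, a receptor gene for T cell help, had 153, 146 and 160 CPM with LPS and 85.0, 75.9 and 86.4 CPM with LTA. No library overlapped, and the log2 difference was 0.89 ± 0.07 (edgeR, adjusted p = 6.3e-14). Icam1, an adhesion molecule gene, had 838, 918 and 892 CPM with LPS and 693, 697 and 690 CPM with LTA, a log2 difference of 0.35 ± 0.04 (edgeR, adjusted p = 7e-08). Of 28 secondary inflammatory and antimicrobial genes, 7 were higher (among them Saa3, Ptgs2, Clec4e, Plaur, Pde4b and Slc7a2) and none lower, with a median log2 difference of 0.26. Without LTA replicate 2, 4 of the 28 were called. Slc7a2 was near the threshold (edgeR, adjusted p = 0.048). Saa3, a serum amyloid A gene made by macrophages, had 1194, 1013 and 1080 CPM with LPS and 864, 803 and 814 CPM with LTA. The LPS libraries were spread more widely but did not reach the LTA libraries, and the log2 difference was 0.40 ± 0.06 (edgeR, adjusted p = 2.1e-06). Ptgs2, which encodes the prostaglandin-forming enzyme COX-2, had a log2 difference of 0.24 ± 0.05 (edgeR, adjusted p = 0.0021; 0.069 without LPS replicate 3).

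Some of the largest positive differences lay outside these lists. Shisa3, which encodes a membrane-bound regulator of Wnt and FGF receptors, had 40.3, 41.1 and 39.9 CPM with LPS and 17.4, 13.9 and 13.4 CPM with LTA. The LPS libraries were nearly identical, and the log2 difference was 1.43 ± 0.15 (edgeR, adjusted p = 3.3e-10). Il4i1, which encodes a secreted amino acid oxidase, had 24.1, 28.2 and 31.3 CPM with LPS and 11.9, 13.0 and 9.48 CPM with LTA, with a log2 difference of 1.28 ± 0.18. Fscn1, the gene of the actin-bundling protein fascin, had 24.8, 23.6 and 21.6 CPM with LPS and 10.6, 10.2 and 13.9 CPM with LTA, with a log2 difference of 1.02 ± 0.20. The largest differences were picked among genes without overlap, so the lack of overlap in these genes was set by the choice. The heat shock genes Hspa1b (0.52) and Hspa1a (0.48) were both higher. They were the 2 called of 17 unfolded protein response and heat shock genes, against 1.40% of all genes tested. Hspa1a had an adjusted p of 0.055 without LTA replicate 1 and of 0.054 without LPS replicate 3, and 1 gene of that list was then called. These 2 genes are near-identical copies, and the counting may split their reads.

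Among the 39 genes lower with LPS than with LTA was the transporter gene Slco4a1. It encodes an organic anion transporter and had 72.2, 78.3 and 75.5 CPM with LPS against 149, 155 and 152 CPM with LTA. Both groups were tight and lay far apart, and the log2 difference was -1.0 ± 0.08 (edgeR, adjusted p = 2.1e-14). Slc6a12, which encodes a betaine and GABA transporter, had 26.9, 26.1 and 24.3 CPM with LPS and 49.7, 44.4 and 40.1 CPM with LTA. Its log2 difference was -0.81 ± 0.12 (edgeR, adjusted p = 5.7e-06). The largest negative differences were picked among genes without overlap, so the gap between groups in Slco4a1 and Slc6a12 was a condition of the choice. Gclm, which encodes the modifier subunit of the enzyme that starts glutathione synthesis, had 204, 190 and 195 CPM with LPS and 259, 259 and 245 CPM with LTA, with a log2 difference of -0.38 ± 0.05 (edgeR, adjusted p = 8.8e-07). Gclm and Prdx1 were the 2 called of 16 NRF2 and oxidative stress genes, both lower with LPS, against 1.40% called over all genes tested. The list had a median log2 difference of -0.14. Prdx1 was not called by DESeq2 (adjusted p = 0.11) or with RLE factors (0.061), nor without LTA replicate 1 (0.12), 2 (0.096) or 3 (0.11) or LPS replicate 2 (0.28) or 3 (0.097), and Gclm alone was then called in the list in all of these but the fit without LTA replicate 2.

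Receptor genes were called in both directions, against 1.40% of all genes tested that were called. Of 22 chemokine and growth factor receptor genes, 3 were higher (Ifnar1, Tnfrsf1b and Ccrl2) and 1 lower, Cxcr4, with a median log2 difference of 0.10. The count of 4 became 2 without LTA replicate 1 or LPS replicate 2 and 1 without LTA replicate 2. Cxcr4, the receptor gene for CXCL12, had 12, 10 and 10.2 CPM with LPS and 16.2, 26.4 and 21.7 CPM with LTA. The LTA libraries were higher but uneven, and the log2 difference was -1.01 ± 0.19 (edgeR, adjusted p = 0.00067; 0.074 without LTA replicate 2). The receptor genes of the ligands were not called: Tlr4 had a log2 difference of -0.42 ± 0.15 (edgeR, adjusted p = 0.26), Tlr2 of -0.09 ± 0.05 (adjusted p = 0.65) and Cd14 of 0.13 ± 0.04 (adjusted p = 0.15). Cell cycle genes were lower in 1 of 30, Rrm2, a subunit gene of ribonucleotide reductase with a log2 difference of -0.41 (adjusted p = 0.0033; 0.062 without LPS replicate 2, when none of the 30 was called). The hypoxia and glycolysis list held 21 gene IDs for 20 symbols, as Aldoa has more than 1 ID. Pkm, which encodes a pyruvate kinase of glycolysis, was the 1 lower of them, with a log2 difference of -0.16. It was not called in a fit of the 6 libraries alone (adjusted p = 0.086) or with no filter on low counts (0.057), nor without LTA replicate 1 (0.19) or 2 (0.12) or LPS replicate 1 (0.11) or 3 (0.056), leaving none of that list.

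The remaining lists held few calls, against a background of 1412 of 15119 genes at an unadjusted p below 0.05. Of 31 Toll-like receptor and adaptor genes none was called by edgeR or DESeq2, with 7 at an unadjusted p below 0.05 and a median of 0.00 (-0.03 when scaled by total counts alone). The 22 cholesterol biosynthesis genes and the 11 cholesterol efflux and LXR target genes held no call by either tool and 2 genes each at an unadjusted p below 0.05. The 11 MHC class II and 15 MHC class I presentation genes held none by either tool and 4 and 6 at that unadjusted p. The 13 mitochondrially encoded genes held none by edgeR, 1 by DESeq2 and 4 at that unadjusted p, and the 31 ribosomal protein genes none by either tool and 8. The 16 macrophage identity genes held no gene below 0.05 before adjustment and none called by DESeq2, with a median of -0.01. Among markers of other cells, 1 erythroid and megakaryocyte gene was called, Pf4, a chemokine gene that macrophages also express, with a log2 difference of 0.40. Its adjusted p was 0.007, and 0.066 and 0.065 without LTA replicates 1 and 2 and 0.051 and 0.061 without LPS replicates 1 and 3. The 5 neutrophil, 6 fibroblast and 5 hepatocyte genes tested, and the 1 gene tested each for B cells, T and NK cells and mast cells, held no call by either tool, and 1 fibroblast gene had an unadjusted p below 0.05. No dendritic cell marker passed the filter on low counts.

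**Figure D3:**
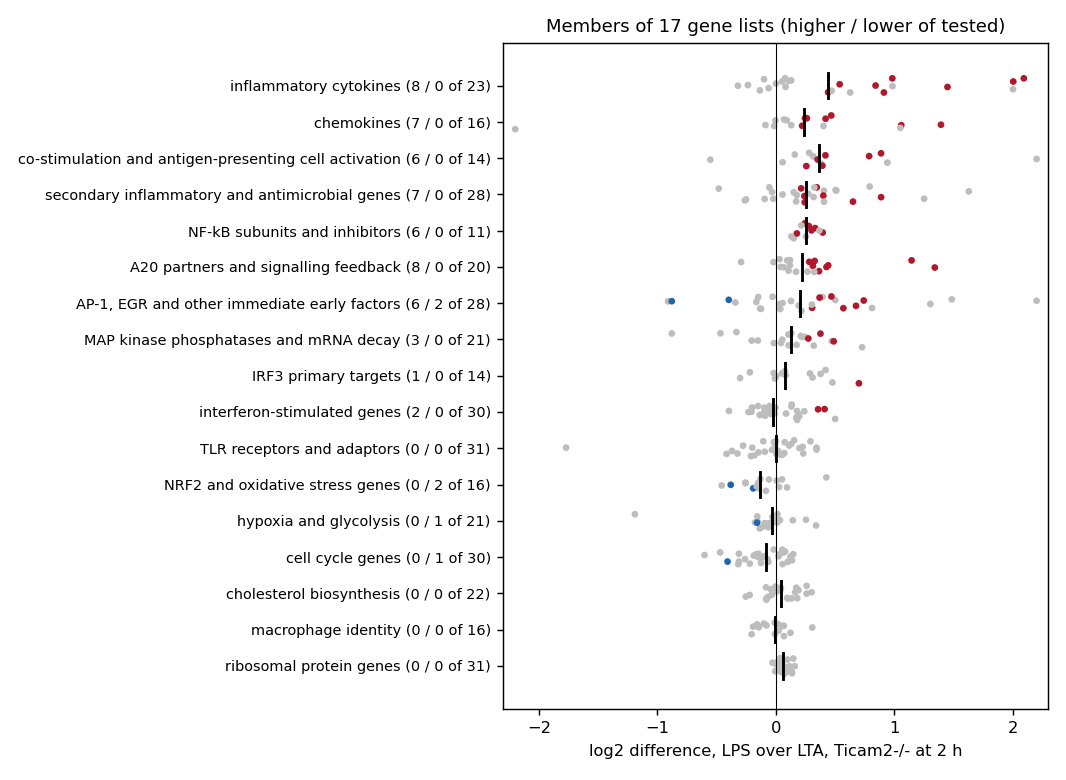
Log2 difference of LPS over LTA at 2 h in Ticam2-/- macrophages (x axis) for the tested members of 17 gene lists (one line each, with the number higher and lower of those tested); red points are called higher, blue points called lower, grey points not called, black bars are medians, and 3 members beyond 2.2 are drawn at the edge. The cytokine list has the highest median, 0.44, and all NF-kB genes lie right of zero, as do 29 of 31 ribosomal protein genes, while the interferon-stimulated genes centre on -0.02.

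The same ligand comparison in WT macrophages at 2 h, a contrast of the same fit, called 181 genes (1.20%), 166 higher (1.10%) and 15 lower (0.0992%). Both genotypes share the gene filter and the estimate of spread, so their calls are not fully separate. Of the 172 higher genes in Ticam2-/- cells, 84 were also called higher in WT cells, which is 48.8% of the Ticam2-/- genes and 50.6% of the WT genes. Of the 39 lower genes, 6 were shared, 15.4% of the Ticam2-/- genes and 40% of the WT genes. The WT log2 difference was above 0 for 163 of the 172 higher genes, with a median of 0.35, and below 0 for 30 of the 39 lower genes, with a median of -0.10. The 4 interleukin genes had these values: Il1b had a log2 difference of 0.98 in Ticam2-/- and 1.00 in WT cells, Il1a of 1.45 and 1.47, Il6 of 0.91 and 1.04, and Il12b of 2.09 and 1.75. The differences between these genotype pairs had SEs of 0.06, 0.11, 0.14 and 0.33, in the same order, and none was called (adjusted p = 1 each).

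A test of the difference itself, Ticam2-/- minus WT in the LPS over LTA log2 difference, called 19 genes (0.126%), 18 lower (0.119%) and 1 higher (0.00661%) in Ticam2-/- cells. Cxcl10 had the clearest one. The Ticam2-/- libraries all lay between 209 and 233 CPM, against 1198, 1120 and 1218 CPM with LPS and 492, 502 and 487 CPM with LTA in WT cells. The log2 differences of 0.00 in Ticam2-/- and 1.26 in WT cells differed by -1.25 ± 0.07 (edgeR, adjusted p = 1.7e-20). Rsad2 had log2 differences of -0.02 in Ticam2-/- and 1.55 in WT cells, a gap of -1.57 ± 0.12 (edgeR, adjusted p = 4.4e-14). The antiviral genes Ifit1 (-1.13), Isg15 (-0.84) and Oasl1 (-1.45) were lower in the same way, with Oasl1 at an adjusted p of 0.053 without Ticam2-/- LTA replicate 1. Ccl5, which did differ between ligands in Ticam2-/- cells, differed less than in WT cells, by -0.41 ± 0.08 (edgeR, adjusted p = 0.0022). Of the 14 IRF3 targets, 1 was called higher with LPS in Ticam2-/- cells, with a median log2 difference of 0.08, and 10 in WT cells, with a median of 1.16. The genotype difference was called for 6 of the 14, all lower in Ticam2-/- cells. Of the 30 interferon-stimulated genes, 2 were called higher with LPS in Ticam2-/- and 10 in WT cells. Their genotype difference was called for 1 gene, Oasl1, and not for the other 29. Ifnb1 was higher with LPS in WT cells (log2 difference 3.16 ± 0.62, adjusted p = 0.00085), but the genotype difference rests on 2 counts in Ticam2-/- cells and was not called (adjusted p = 1).

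The genotype difference also held genes outside the interferon lists. The chemokine genes Ccl4 (-0.60), Ccl2 (-0.47), Ccl7 (-0.62) and Ccl3 (-0.31) were lower in Ticam2-/- cells, with an adjusted p for Ccl3 of 0.0062, and of 0.06 without WT LPS replicate 3. Tnf differed by -0.31 ± 0.06 (edgeR, adjusted p = 0.00071), with a log2 difference between ligands of 0.08 in Ticam2-/- and 0.39 in WT cells. Zfp36 differed by -0.69, Dusp1 by -0.98 and Atf3 by -0.66. Peli1, which encodes a ubiquitin ligase of Toll-like receptor signalling, differed by -0.68 but belongs to the IRF3 target list. Slco4a1, called lower with LPS in both genotypes, had a more negative difference in Ticam2-/- cells, by -0.67 ± 0.10 (edgeR, adjusted p = 1.3e-05). Saa3 was the 1 gene with a higher difference: it was called higher with LPS in Ticam2-/- cells (log2 difference 0.40) and lower in WT cells (-0.30), a gap of 0.70 ± 0.09 (edgeR, adjusted p = 1.5e-06). The call in WT cells (edgeR, adjusted p = 0.011) was not firm. It was lost without WT LTA replicate 1 (0.1) or 2 (0.057) or WT LPS replicate 1 (0.092) or 3 (0.053). The WT levels of Saa3 were 207, 223 and 219 CPM with LPS and 278, 267 and 258 CPM with LTA, all below the lowest Ticam2-/- library.

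**Figure D4:**
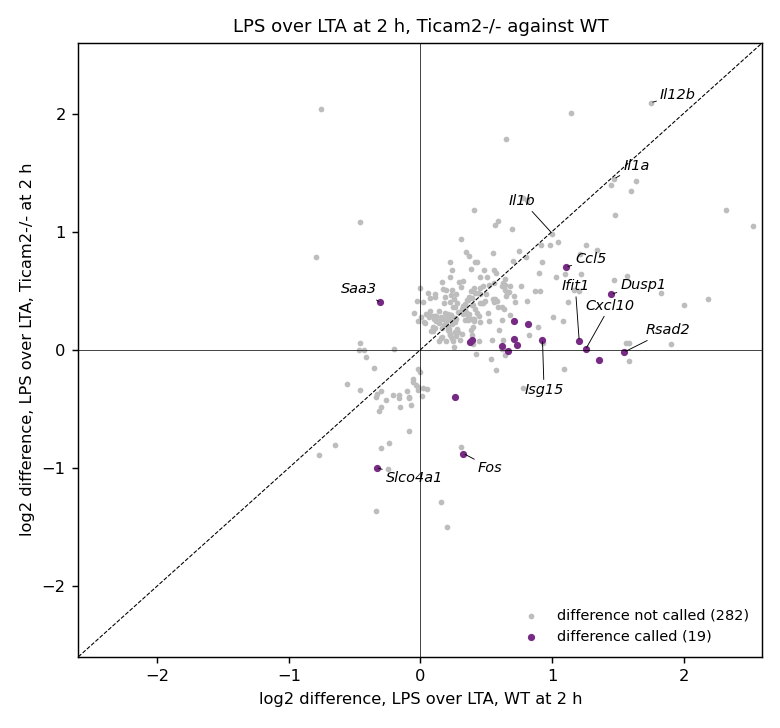
Log2 difference of LPS over LTA at 2 h in Ticam2-/- (y axis) against WT macrophages (x axis) for the 301 genes called in either; purple marks the 19 genes whose genotype difference was called, the dashed line is equality, and 6 genes lie outside the axes. The interleukin genes lie near the line, Cxcl10 and Rsad2 lie at zero in Ticam2-/- and above 1 in WT cells, and 269 of the 301 genes have the same sign in both.

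At 6 h the Ticam2-/- comparison of LPS with LTA called 402 genes (2.66%), 203 higher (1.34%) and 199 lower (1.32%) from the deeper libraries. This count rested on single libraries: it was 265, 214 and 257 without LTA replicate 1, 2 and 3, and 850, 175 and 192 without LPS replicate 1, 2 and 3. Of the 172 genes higher at 2 h, 57 were also higher at 6 h (33.1% of the 2 h genes and 28.1% of the 6 h genes), and of the 39 lower genes 17 were also lower (43.6% and 8.54%). The 6 h log2 difference was above 0 for 142 of the 172 higher genes but with a median of 0.10, and below 0 for 33 of the 39 lower genes with a median of -0.18. Il6, Ptgs2, Hspa1b, Fos and Nfam1 were called in opposite directions at the 2 times. The 6 h call of Hspa1b was lost without LTA replicate 1 (edgeR, adjusted p = 0.06) or 3 (0.056) or LPS replicate 2 (0.13) of 6 h. At 2 h the call of Ptgs2 was lost without LPS replicate 3 (adjusted p = 0.069) and that of Fos without LTA replicate 2 (0.33) or LPS replicate 3 (0.15). Nfam1 was close to the threshold at both times, with adjusted p-values of 0.0468 at 2 h and 0.0435 at 6 h.

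A test of the change in difference, 2 h minus 6 h, called 76 genes (0.503%), 65 with a higher (0.430%) and 11 with a lower (0.0728%) difference at 2 h. Total counts alone gave 50 and 17, and without LPS replicate 2 of 2 h the count was 50. The 2 h libraries form a set of their own, so time and library set cannot be told apart here. Of the genes called at 2 h, the change was called for 53 of the 172 higher and 7 of the 39 lower ones. Il1b had a log2 difference of 0.98 at 2 h and 0.20 at 6 h, a change of 0.78 ± 0.06 (edgeR, adjusted p = 5.9e-15). Il1a had 1.45 at 2 h and 0.32 at 6 h, and Il12b 2.09 at 2 h and 0.42 at 6 h, the 6 h value of Il12b not being called. Il6 had 0.91 at 2 h and -0.16 at 6 h, and the change of 1.08 ± 0.11 was called (edgeR, adjusted p = 3.6e-10). The 6 h value of Il6 was marginal (adjusted p = 0.046; 0.051 to 0.19 in 8 of the other fits). Ptgs2 had 0.24 at 2 h and -0.41 at 6 h, Cxcl1 0.42 and -0.15, and Fos -0.88 and 0.33, with changes of 0.65, 0.57 and -1.21. The change in Fos had an adjusted p of 0.00047, and of 0.052 without LTA replicate 2 of 2 h. Socs3, Tnfaip3 and Ccl9 had nearly the same difference at both times, with changes of 0.01, 0.01 and 0.02 that were not called.

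**Figure D5:**
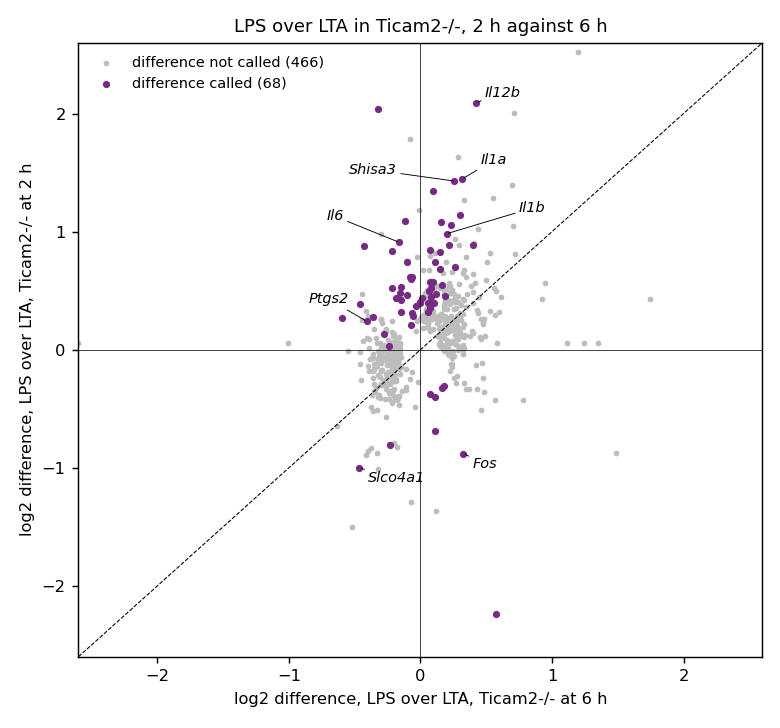
Log2 difference of LPS over LTA in Ticam2-/- macrophages at 2 h (y axis) against 6 h (x axis) for the 534 genes called at either time; purple marks the 68 of them whose change in difference was called, the dashed line is equality, and 3 genes lie outside the axes. The interleukin genes lie above the line, and 415 of the 534 genes have the same sign at both times.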

How the data were processed

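RNA was sequenced from macrophages grown from bone marrow of Ticam2-/- and WT mice, per the labels. The authors deposited 1 table of estimated counts per gene ID for all 30 libraries, of which 25.2% of the values above 0 are not whole; they were rounded here. STAR 2.7.11, featureCounts of Subread 2.1.1, SAMtools 1.22.1 and fastp 0.24.0 were used with GRCm38/mm10, per the notes that the submitters gave on processing; the tools' order and settings, the strand setting and the annotation release are not stated there, and unstranded counting would merge antisense and overlapping genes. Of 32361 gene IDs, 26314 were named with GENCODE M21; the rest held 2.14% to 2.80% of the counts in the 6 libraries compared.

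Genes were kept by filterByExpr (minimum count 10, minimum total 15), which left 15119. All 30 libraries were fitted in edgeR 4.0.16 (R 4.3.3, limma 3.58.1) by quasi-likelihood with TMM factors, 1 coefficient for each of the 10 groups and 20 residual degrees of freedom. The ligands were compared in Ticam2-/- cells at 2 h and 6 h and in WT cells at 2 h, and the differences between genotypes and between times were contrasts of the same model. Calls are at a Benjamini-Hochberg adjusted p below 0.05. The script was tested on simulated data. DESeq2 1.42.0, other scalings, filters and sample sets, a replicate block and each library left out were tried as alternatives.

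Text genes were preset genes, up to 4 called members of each of 31 lists with the smallest p, the 15 largest positive and 15 largest negative differences without overlap, and genes with a called genotype difference, in part left out for space; other called list members are named without full values. Nfam1 and Csf2 were named after their values were seen, as were Csf1, Il27 and Tnfsf9. The genes and lists were chosen with earlier results of these data known. The labels describe the replicates as separate animals, but their numbers were not taken to pair libraries. Depth limits precision, and levels near 3 counts cover counting error only. The labels' harvest text names 6 h alone; the 2 h time is taken from the sample labels.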

Additional observations from a re-analysis of the deposited data

Results flagged for a closer look

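The difference between LPS and LTA at 2 h itself differed between Ticam2-/- and WT macrophages in 19 genes, by a contrast of the same edgeR fit. The log2 difference was lower in Ticam2-/- than in WT cells for Rsad2 -1.57, Oasl1 -1.45, Cxcl10 -1.25, Fos -1.21, Ifit1 -1.13, Dusp1 -0.98, Isg15 -0.84, Zfp36 -0.69, Peli1 -0.68, Slco4a1 -0.67, Atf3 -0.66, Ccl7 -0.62, Ccl4 -0.60, Helz2 -0.59, Ccl2 -0.47, Ccl5 -0.41, Tnf -0.31 and Ccl3 -0.31. It was higher in Ticam2-/- cells for Saa3, by 0.70. Of these, Fos, Helz2, Oasl1 and Ccl3 each lost the call when at least 1 library was left out, and Helz2 also in DESeq2 (adjusted p = 0.065) and in the 12 libraries of 2 h alone (0.093).

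Within Ticam2-/- cells the difference between LPS and LTA changed between 2 h and 6 h in 31 of the 90 text genes. It was higher at 2 h than at 6 h, on the log2 scale, for Il12b 1.67, Cish 1.24, Adora2a 1.21, Shisa3 1.17, Il1a 1.13, Il6 1.08, Ppfia3 0.93, Socs1 0.85 and Cx3cl1 0.83. Smaller gaps in the same direction were found for Il1b 0.78, Hspa1b 0.74, Ptgs2 0.65, Hspa1a 0.64, Cxcl1 0.57, Cxcl3 0.57, Cd40 0.49, Ccl5 0.44 and Tnfaip2 0.43, and for Cxcl2 0.41, Saa3 0.40, Jund 0.40, Junb 0.35, Cd69 0.33, Nfkbiz 0.29, Clec4e 0.29 and Icam1 0.28. The difference was lower at 2 h than at 6 h for Fos -1.21, Kcnj2 -0.80, Slc6a12 -0.58, Slco4a1 -0.53 and Atf3 -0.51. Adora2a, Cd69, Nfkbiz and Slc6a12 lost this call in several fits that left out 1 library, and Cish, Cx3cl1, Icam1, Fos, Socs1, Atf3, Kcnj2 and Ppfia3 in 1 or more of them. Outside those fits, Adora2a lost it in DESeq2 (adjusted p = 0.08), with no filter on low counts (0.073) and with total counts alone (0.053). Cd69 lost it with no filter (0.075) and with total counts alone (0.06). Slc6a12 lost it in DESeq2 (0.075) and with no filter (0.052), and Nfkbiz with total counts alone (0.064). The 2 h libraries are shallower than the 6 h libraries, and the part of depth in these changes was not tested.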

How the results depend on the processing

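At 2 h the 211 called genes in Ticam2-/- cells became 180 to 232 under other sample sets, scalings, filters and DESeq2, and 141 (without LTA replicate 2) to 193 (without LPS replicate 1) with each library left out. Of 68 called genes among the 90 text genes, 38 kept the call without each library in turn and 63 under all other settings, and no value reversed. WT calls were 134 to 174 with a library left out, against 181, and calls of the genotype difference 17 to 22, against 19. Calls at 6 h ranged from 175 to 850 with each library left out, and calls of the change between times from 50 (without LPS replicate 2 of 2 h) to 94; the cause was not tested. Scaling by total counts moved the median of all genes to -0.02 and gave 136 higher and 62 lower genes at 2 h. Replicate numbers did not pair the 2 h libraries (correlations of deviations 0.034, 0.089 and 0.041 over 4342 genes), and not every library correlated best with its own number; with the replicate block the counts were 183 at 2 h in Ticam2-/-, 164 in WT, 18 for the genotype difference, 455 at 6 h and 63 for the change between times, and 200 with the block in the 6 libraries alone; under it Helz2 (adjusted p = 0.11) was not called for the genotype difference, nor Adora2a (0.05) and Cd69 (0.052) for the change between times. At 2 h, 3 counts correspond to 1.13 to 2.25 CPM, depending on the library.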
